A study of Mus musculus with 18 samples.

Results

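Guanylate-binding proteins (Gbp) and immunity-related GTPases (IRG) are proteins that bind guanine nucleotides and are made in large amounts when cells respond to interferon. Described here are 9 such genes of the 47643 in the deposited count table. They were taken by symbol, matched to Ensembl identifiers, and comprise 4 Gbp genes (Gbp2, Gbp3, Gbp6 and Gbp7), 3 regulatory IRG genes (Irgm1, Irgm2 and Igtp) and 2 effector IRG genes (Iigp1 and Tgtp1). RNA came from MPC3, a prostate cancer cell line of the mouse, in 18 libraries that the labels divide into 3 groups of 6. The control group carries the word plko in its titles, and the other groups carry shRNF185.1 or shRNF185.3, short hairpin RNAs directed at Rnf185, which encodes a ubiquitin ligase of the endoplasmic reticulum membrane. Replicates 1 and 2 of each group form batch 1, replicates 3 and 4 form batch 2, and replicates 5 and 6 form batch 3. The strain, the age of the cultures after the hairpins were introduced, and whether the hairpin cells were a pool or a single clone are not given in the sources used here. The labels name no interferon and no infection in any group. Nothing in them says whether the numbered libraries came from separate cultures, so the p-values below measure the spread between these libraries, which may be technical. The authors had already adjusted the deposited counts for batch, and the main fit held no batch term. The p-values therefore leave out any spread that this adjustment removed, and may be too small.

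Interferon gamma switches on genes that carry a DNA element called GAS. The type I and type III interferons act through a complex that includes STAT2 and IRF9 and binds an element called ISRE, which IRF1 also recognises. Gbp and IRG genes are among the genes most strongly induced through these elements. Gbp proteins assemble on vacuoles and bacteria inside the cell, help to disrupt them and help to activate inflammatory caspases. Effector IRG proteins coat vacuoles that hold parasites or bacteria, while regulatory IRG proteins sit on the cell's own membranes and keep the effectors inactive there.

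The promoters of the members were examined first, since both elements can be read from the reference sequence. RefSeq windows of 300 bases, from 250 bases before to 50 after a transcript start on GRCm38.p6, were used for 7 of the 9 genes, all except Gbp6 and Iigp1. They numbered 8, since Gbp3 has a second start. Each window was searched on both strands for the ISRE core GAAANNGAAA and the GAS core TTCNNNGAA. The ISRE core was found in 7 of these 8 windows, compared with 3.44% of all 32851 windows in the table. The window without it was the second one of Gbp3, so that by gene the count was 7 of 7, compared with 3.99% of all 27025 genes. The GAS core was found in 4 of the 8 windows, those of Gbp7, Igtp, Irgm2 and Tgtp1, compared with 8.3% of all windows, and both cores in the same 4, compared with 0.454%. Of 18 further genes of the Gbp and IRG families, 8 had a window. Among these 8 the ISRE core was found in 5, the GAS core in 3 and both in 3. The cores were thus not particular to the members, and some of the genes are related copies whose windows are not independent. A match of letters is a description of the sequence and does not show that a factor bound there.

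The stretches that hold the matches are printed to show how the elements are arranged, 5′ to 3′ in the direction of the gene, in lower case with the matched cores in capitals. For Gbp2 and Irgm1 30 bases around the match are given, and for the others the 110 bases before the RefSeq start. The Gbp2 stretch lies at chr3:142620594-142620623 on the plus strand, that of Gbp3 at chr3:142559934-142560043 plus and that of Gbp7 at chr3:142530226-142530335 plus. The Irgm1 stretch lies at chr11:48871428-48871457 on the minus strand, that of Irgm2 at chr11:58214867-58214976 plus, that of Igtp at chr11:58199446-58199555 plus and that of Tgtp1 at chr11:48992247-48992356 minus.
Gbp2: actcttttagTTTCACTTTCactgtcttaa
Gbp3: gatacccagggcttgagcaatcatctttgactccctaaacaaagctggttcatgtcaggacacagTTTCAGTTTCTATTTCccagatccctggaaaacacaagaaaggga
Gbp7: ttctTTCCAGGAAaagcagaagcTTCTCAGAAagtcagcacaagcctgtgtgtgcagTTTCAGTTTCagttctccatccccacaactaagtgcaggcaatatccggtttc
Irgm1: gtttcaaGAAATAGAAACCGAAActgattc
Irgm2: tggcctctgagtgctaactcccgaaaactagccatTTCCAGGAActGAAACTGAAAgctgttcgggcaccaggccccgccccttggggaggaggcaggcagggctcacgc
Igtp: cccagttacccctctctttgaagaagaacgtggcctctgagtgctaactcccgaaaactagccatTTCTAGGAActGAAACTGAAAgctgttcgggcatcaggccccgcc
Tgtp1: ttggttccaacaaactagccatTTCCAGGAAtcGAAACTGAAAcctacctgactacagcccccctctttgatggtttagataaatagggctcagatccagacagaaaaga

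In Gbp2, Gbp3 and Gbp7 the ISRE core ran on the opposite strand, so it reads TTTCNNTTTC, and in Gbp3 and Irgm1 a second match overlapped the first. The match lay 59 to 50 bases before the RefSeq start in Gbp2, 45 to 30 in Gbp3, 53 to 44 in Gbp7 and 30 to 15 in Irgm1. GENCODE M21 places the start of the gene 61 bases further upstream in Gbp2 and 263 in Irgm1, so that in these 2 genes the match lies within an annotated exon. The GENCODE gene also begins 1926 bases upstream of the RefSeq start used here in Tgtp1 and 15359 in Irgm2, whose stretches are 12 and 0 bases exonic out of 110. Irgm2, Igtp and Tgtp1 shared an arrangement in which the GAS core came first and the ISRE core followed after 2 bases, so that the starts of the cores were 11 bases apart. That arrangement was found in 5 of 32851 windows (0.0152%), the other 2 being Tgtp2 and Gm12185, also IRG genes. The spacing was chosen after these sequences had been read, and the genes are related copies: the windows of Igtp and Irgm2 had an identical run of 61 bases and were 68.1% identical over 270 bases aligned without gaps.

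**Figure D1:**
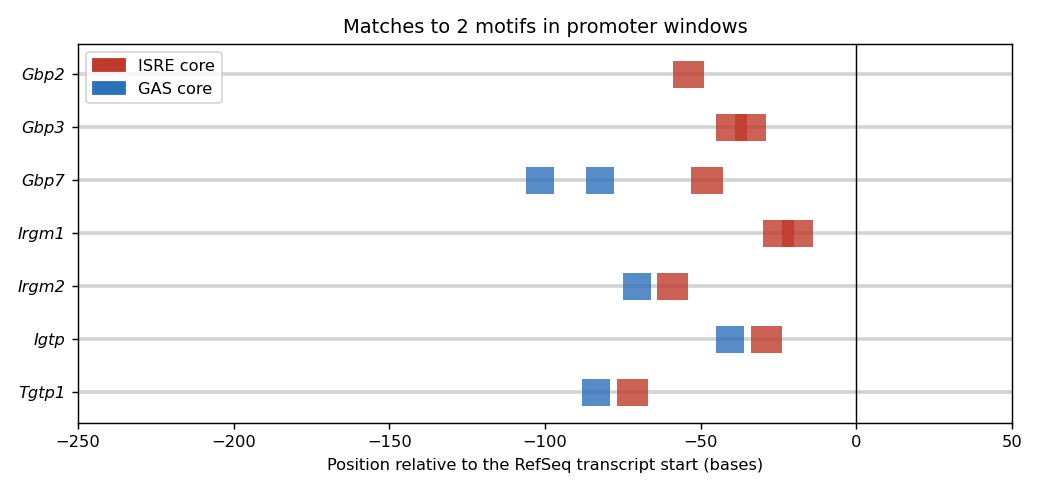
Positions of ISRE core (red) and GAS core (blue) matches in 1 RefSeq promoter window of each of 7 GTPase genes, drawn to scale on an axis of bases from the transcript start, with 250 bases before it and 50 after. Each window drawn has a red block (the second Gbp3 window, with no match, is not drawn), and the blue block stands just before the red one in Irgm2, Igtp and Tgtp1.

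Total counts per library ranged from 22027395 to 43379662, so that 3 counts, used here as a floor, equal 0.0692 to 0.136 CPM. CPM are counts relative to the size of the library, here as the authors deposited them with library sizes scaled by the trimmed mean of M values, and they are called the level below. The targeted gene Rnf185 averaged 35.9 ± 1.96 CPM in control libraries, 5.81 ± 0.582 in those of shRNF185.1 and 5.80 ± 0.546 in those of shRNF185.3 (SD, n = 6), a log2 fold change of -2.63 for both. Leukocytes and endothelial cells also express Gbp and IRG genes. Of 9 leukocyte markers, 8 had at most 3 counts in any control library and 6 in any library of either hairpin, and the summed level of the 9 was 2.44 to 5.19 CPM in control, 1.82 to 3.13 with shRNF185.1 and 2.33 to 3.72 with shRNF185.3, most of it Cd68, the single marker of the 9 that was tested. Cd3e and Nkg7 had 0 counts in every library, and Ptprc, carried by all leukocytes, at most 3. The 5 endothelial markers summed to at most 0.748 CPM in any library. The 5 prostate epithelial markers, most of it Krt8 and Krt18, summed to 1408 to 1753 CPM in control, 873.0 to 1190 with shRNF185.1 and 940.2 to 1039 with shRNF185.3, with Epcam and Krt5 near 0. The tested 3 all fell over both hairpins in edgeR, Cdh1 (E-cadherin) by 2.02 on the log2 scale (adjusted p 5.56e-07), from 24.2 to 57.7 CPM across control libraries to 5.83 to 13.9 across those of shRNF185.1 and 5.63 to 10.45 across those of shRNF185.3, Krt18 by 1.12 and Krt8 by 0.52. The 4 fibroblast markers summed to 248.0 to 283.6, 292.3 to 306.8 and 359.0 to 401.5 CPM, most of it Pdgfra and Pdgfrb, and did not move together. Over both hairpins Pdgfrb rose by 0.47 and Pdgfra by 0.23, while Dcn fell (edgeR adjusted p 0.000227), from a mean of 24.9 CPM in control to 5.76 for shRNF185.1 (log2 fold change -2.11) and 17.6 for shRNF185.3 (-0.50, adjusted p 0.182, not called). The part of these epithelial and fibroblast genes in the differences below was not tested. In bulk RNA, more cells that express a gene and more RNA per cell cannot be told apart.

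All 9 GTPase genes rose with each hairpin. The threshold for a call was 0.05 on the p of edgeR's quasi-likelihood F test after Benjamini-Hochberg adjustment over 14309 genes. With shRNF185.1, 9 of 9 were called higher and 0 lower, where of all genes tested 14.6% were called higher, 14.3% lower and 28.9% in either direction. With shRNF185.3, 9 of 9 were called higher as well, where the shares were 14.2% higher, 13.1% lower and 27.3% in all. The call of Irgm1 with shRNF185.3 was close to the threshold and was lost in 17 of the 32 alternatives described below. With both hairpins averaged the count was again 9 of 9, where the shares were 16.1% higher, 16.8% lower and 32.9% in all. The median log2 fold change of the 9 was 2.09 with shRNF185.1 (0.78 to 2.93) and 1.84 with shRNF185.3 (0.62 to 2.66), and that of all genes tested was -0.02 in both. The hairpins were compared with the same 6 control libraries, so these results are not independent of each other. The 9 genes were also chosen with earlier results of these data known, so their counts beside these shares are a description and not a test. Iigp1 passed the filter on low counts mainly through its hairpin libraries, since 3 of its 6 control libraries reached the required level of 0.368 CPM. The other 8 reached it in all 6 control libraries.

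The Gbp genes lie in 2 clusters. Gbp2 (ENSMUSG00000028270, chromosome 3 from 142620602 to 142638008, plus strand, GRCm38 in GENCODE M21) encodes a Gbp with a lipid anchor that brings it to membranes. Its level was lowest at 5.65 CPM, with a median of 10.2 and a highest value of 11.4, in control, compared with 40.0, 50.6 and 54.1 for shRNF185.1 and, for shRNF185.3, 24.9, 28.3 and 50.1. No hairpin library overlapped the control libraries, and shRNF185.3 libraries lay below those with shRNF185.1 except for replicate 5, at 50.1 CPM. The means were 9.54 ± 2.19, 49.4 ± 4.99 and 31.2 ± 9.35 CPM (SD, n = 6 each). With shRNF185.1 it rose by 2.38 on the log2 scale (edgeR, SE 0.17, adjusted p 1.36e-08), and with shRNF185.3 by 1.72 (SE 0.17, adjusted p 6.61e-07).

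Gbp3 (ENSMUSG00000028268, chromosome 3 from 142560026 to 142573209, plus strand), a neighbour of Gbp2, showed the largest fold of the 4 Gbp genes in edgeR. Lowest, median and highest levels were 1.79, 3.85 and 5.54 CPM in control, 18.2, 24.5 and 28.9 for shRNF185.1 and, for shRNF185.3, 12.5, 15 and 26.5. Here too the hairpin libraries all lay above the control libraries. In edgeR the rise on the log2 scale was 2.67 for shRNF185.1 (SE 0.22, adjusted p 6.72e-08) and 2.16 for shRNF185.3 (SE 0.22, adjusted p 9.83e-07).

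Gbp7 (ENSMUSG00000040253, chromosome 3 from 142530342 to 142550149, plus strand) lies in the same cluster and had nearly equal fold changes with the hairpins. It was at 1.44, 2.76 and 4.05 CPM (lowest, median, highest) in control, 6.17, 10.2 and 13.0 for shRNF185.1 and, for shRNF185.3, 7.94, 10.1 and 13.0, with no overlap between hairpin and control libraries. Its log2 fold changes were 1.92 (SE 0.21, edgeR adjusted p 1.41e-06) and 1.91 (SE 0.21, adjusted p 1.73e-06). Of its 75-base windows, the length of a read, 11.3% occur in other genes, mainly Gm43802, whose annotated exons overlap it on the same strand.

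Gbp6 (ENSMUSG00000104713, chromosome 5 from 105270702 to 105293698, minus strand) belongs to the second cluster, where genes are near copies of each other, and 67.3% of its 75-base windows occur in Gm43302, Gbp10 or Gbp11. Its level is therefore uncertain as that of one gene. Control libraries gave 0.565, 1.5 and 2.13 CPM (lowest, median, highest), shRNF185.1 libraries 5.11, 7.35 and 10.3, and shRNF185.3 libraries 1.99, 4.46 and 8.93. A single shRNF185.3 library, replicate 4, fell within the control range. The log2 fold changes were 2.37 (SE 0.32, edgeR adjusted p 2.12e-05) and 1.76 (SE 0.33, adjusted p 0.000494). With the counts of Gbp6, Gbp10 and Gm43302 summed they were 2.38 and 1.89 (adjusted p 3.9e-05 and 0.000434).

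**Figure D2:**
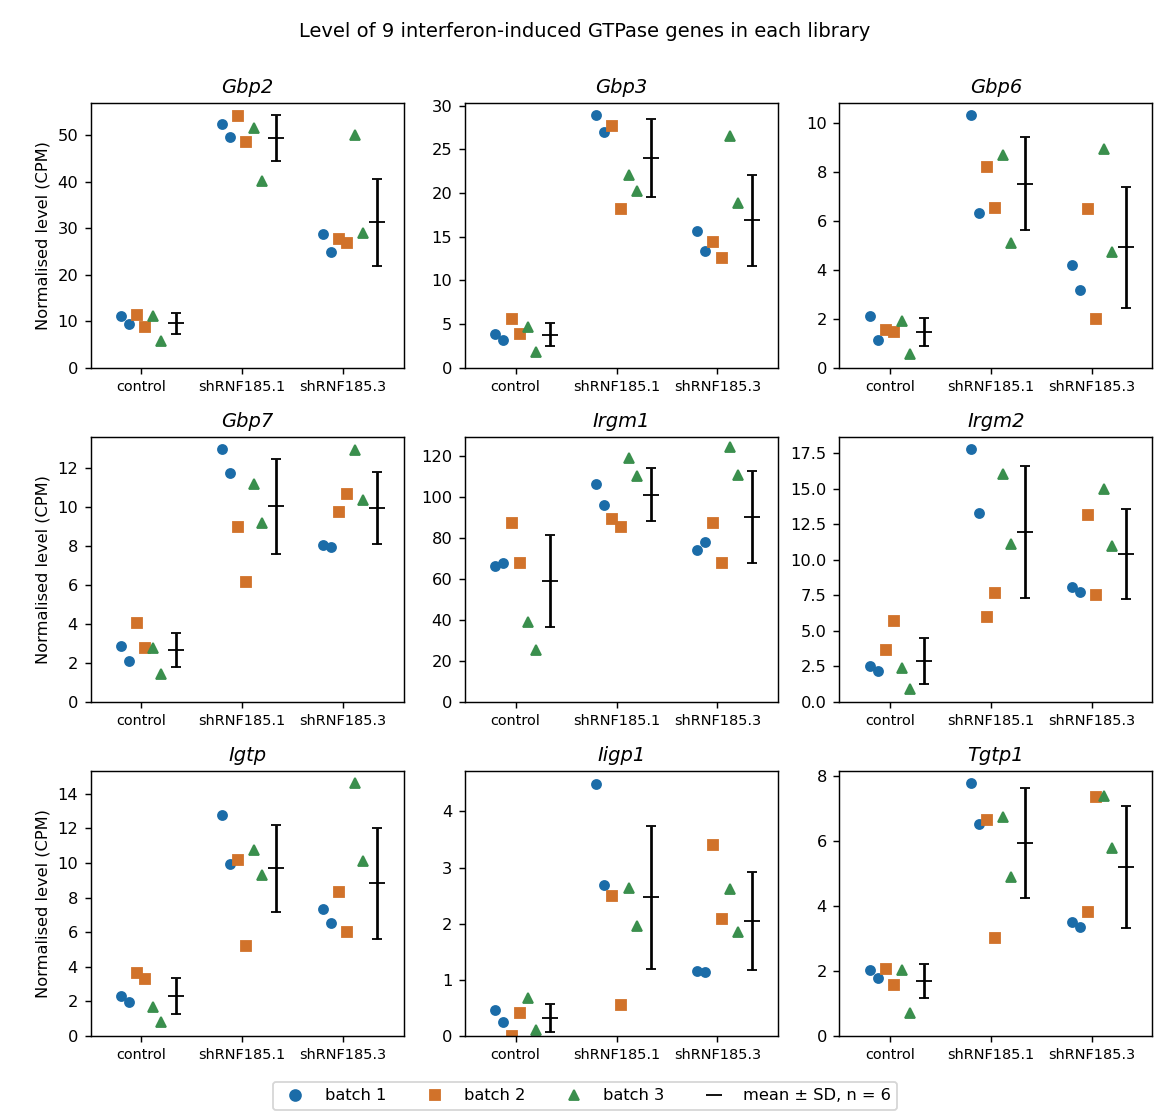
Level in deposited CPM of the 9 GTPase genes in each library, one panel per gene with its own axis from 0. Points are libraries with the batch given by shape and colour, and bars are the mean ± SD of 6 libraries. Hairpin libraries stand above all control libraries in 7 of 9 panels for each hairpin, and the 2 batch 3 control libraries are the lowest for Irgm1.

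Irgm1 (ENSMUSG00000046879, chromosome 11 from 48861968 to 48871683, minus strand), a regulatory IRG linked to autophagy and lysosomes, changed least. Its control libraries held 66.2, 67.8, 87.3, 67.7, 38.8 and 25.4 CPM in replicates 1 to 6, the last pair being batch 3. Lowest, median and highest levels were 85.3, 101 and 119 CPM for shRNF185.1 and, for shRNF185.3, 67.6, 82.5 and 124. Above the highest control library lay 5 of 6 libraries with shRNF185.1 and 2 of 6 with shRNF185.3, both of batch 3. By edgeR its log2 fold change was 0.78 for shRNF185.1 (SE 0.22, adjusted p 0.0122), 0.62 for shRNF185.3 (SE 0.22, adjusted p 0.0452) and 0.70 over both (adjusted p 0.0105). The call with shRNF185.3 was close to the threshold: leaving out 1 library at a time gave 0.46 to 0.76 with adjusted p of 0.0152 to 0.116, and without batch 3 the value was 0.09 (adjusted p 0.62). No other gene shares any of its 75-base windows (0%).

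Irgm2 and Igtp are regulatory IRG genes side by side on chromosome 11, and Igtp, also called Irgm3, is found on the endoplasmic reticulum. Irgm2 (ENSMUSG00000069874, 58199618 to 58222782, plus strand) had lowest, median and highest levels of 0.879, 2.45 and 5.65 CPM in control, 5.96, 12.2 and 17.8 for shRNF185.1 and, for shRNF185.3, 7.53, 9.5 and 15. For Igtp (ENSMUSG00000078853, 58199556 to 58207591, plus strand) the values were 0.816, 2.14 and 3.64 in control, 5.20, 10.1 and 12.8 for shRNF185.1 and, for shRNF185.3, 6.0, 7.82 and 14.6. In both genes every hairpin library exceeded every control library. The log2 fold changes of Irgm2 were 2.04 (SE 0.34, edgeR adjusted p 0.000169) and 1.84 (SE 0.34, adjusted p 0.000482), and those of Igtp were 2.09 (SE 0.29, adjusted p 3.0e-05) and 1.95 (SE 0.29, adjusted p 6.65e-05). Annotated exons of the 2 genes overlap on the same strand, and 4.78% of Irgm2 windows and 7.8% of Igtp windows occur elsewhere, mainly in each other.

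Iigp1 (ENSMUSG00000054072, chromosome 18 from 60376027 to 60392634, plus strand), also called Irga6, is an effector that loads onto parasite vacuoles. It had the lowest level of the 9 genes and, in edgeR, the largest fold. Control libraries held 60 counts in sum, with 1 library at 0, and gave 0, 0.320 and 0.675 CPM (lowest, median, highest). With shRNF185.1 the values were 0.543, 2.55 and 4.49 CPM, and with shRNF185.3 they were 1.14, 1.97 and 3.40. Replicate 4 of shRNF185.1 lay within the control range. The log2 fold changes were 2.93 (SE 0.50, edgeR adjusted p 0.000206) and 2.66 (SE 0.50, adjusted p 0.000588), and their size depends on how low values are handled: limma on log2 of CPM plus 1 gave 1.33 and 1.19.

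Tgtp1 (ENSMUSG00000078922, chromosome 11 from 48985327 to 48994172, minus strand), also called Irgb6, is an effector with a near copy, Tgtp2, and other genes, mainly that copy, share 77.2% of its 75-base windows. Its lowest, median and highest levels were 0.690, 1.90 and 2.07 CPM in control, 3.02, 6.59 and 7.80 for shRNF185.1 and, for shRNF185.3, 3.36, 4.80 and 7.40, so that no hairpin library overlapped the control libraries. The log2 fold changes were 1.82 (SE 0.28, edgeR adjusted p 6.53e-05) and 1.64 (SE 0.28, adjusted p 0.000205). With the counts of Tgtp1 and Tgtp2 summed they were 2.01 and 1.88 (adjusted p 0.000131 and 0.000272).

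Across the 9 genes, all 6 libraries lay above the highest control library for 7 with shRNF185.1, where 7.02% of all genes tested did so, and for 7 with shRNF185.3, where 7.6% did. The exceptions were Irgm1 with both hairpins, Iigp1 with shRNF185.1 and Gbp6 with shRNF185.3.

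**Figure D3:**
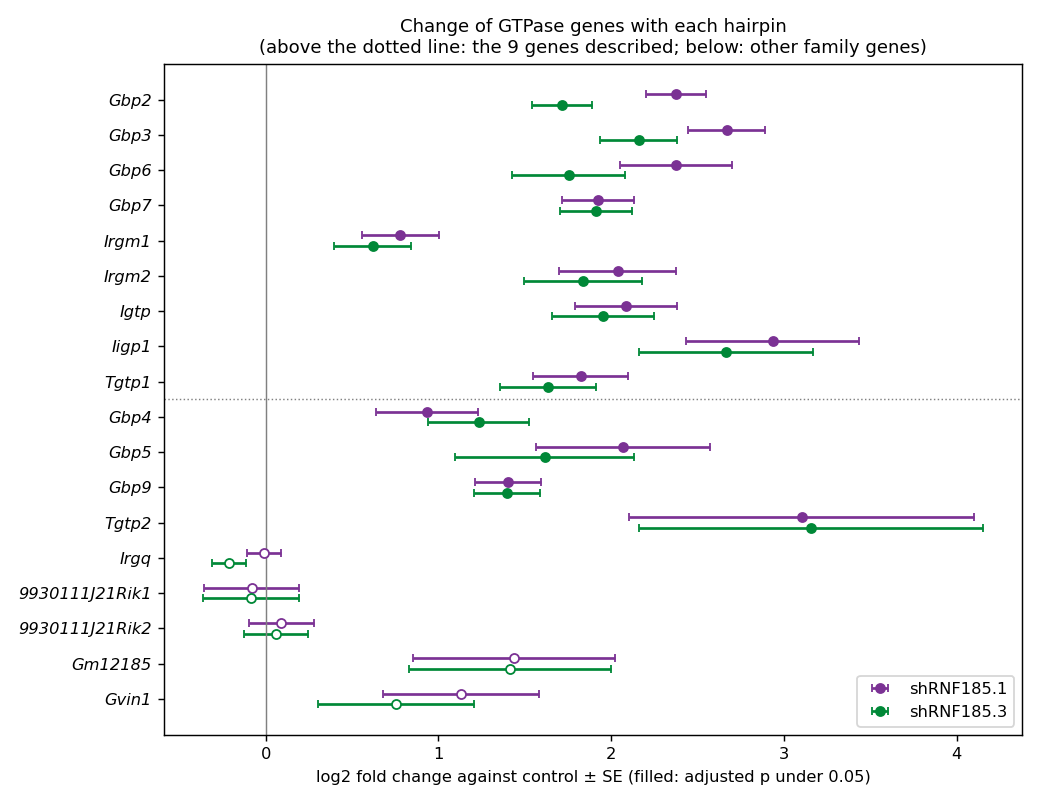
Log2 fold change against control with shRNF185.1 (purple) and shRNF185.3 (green), with bars of 1 SE, for the 9 genes described above the dotted line and for 9 other genes of the families below it. Filled points passed an adjusted p of 0.05 in edgeR; the 9 upper genes are all filled and lie between 0.62 and 2.93.

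The hairpins were next compared with each other, to see whether they changed these genes by the same amount. In shRNF185.3 libraries Gbp2 lay below those of shRNF185.1 (log2 fold change -0.66, SE 0.16, edgeR adjusted p 0.00872). It was the only one of the 9 called, where 14.7% of all genes tested were called, 7.72% higher and 6.94% lower. Without batch 1 the value was -0.54 (adjusted p 0.215) and without batch 2 it was -0.55 (adjusted p 0.14). The other 8 differences ran from -0.62 in Gbp6 (adjusted p 0.197) and -0.51 in Gbp3 (adjusted p 0.109) to -0.01 in Gbp7 (adjusted p 0.986). Those of Gbp3 and Gbp6 passed the threshold without the shRNF185.3 library of replicate 5, at -0.68 (adjusted p 0.0213) and -0.87 (adjusted p 0.047). The IRG genes differed by -0.14 to -0.27, none of them called.

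Whether the change was the same in each batch was tested by the difference between batches of the mean of both hairpins minus control. Within batches 1, 2 and 3, Gbp2 differed from control by 2.31, 2.35 and 2.51 on the log2 scale for shRNF185.1 and by 1.39, 1.45 and 2.26 for shRNF185.3. Irgm1 differed by 0.59, 0.18 and 1.87 for shRNF185.1 and by 0.18, -0.002 and 1.90 for shRNF185.3. Its largest difference was that of batch 3, where its control libraries were lowest. For Irgm2 the values were 2.67, 0.57 and 3.13 and then 1.72, 1.12 and 3.08, and for Igtp 2.37, 1.06 and 3.02 and then 1.67, 1.02 and 3.30. In these regulatory IRG genes the smallest difference was that of batch 2, where control replicates 3 and 4 held the highest control levels of Irgm2 (3.64 and 5.65 CPM) and of Igtp (3.64 and 3.27 CPM).

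For shRNF185.1 the differences in batches 1, 2 and 3 were 2.98, 2.26 and 2.84 in Gbp3, 2.34, 2.23 and 2.58 in Gbp6 and 2.3, 1.14 and 2.3 in Gbp7, and in the effectors 3.11, 2.78 and 2.74 in Iigp1 and 1.87, 1.29 and 2.21 in Tgtp1. For shRNF185.3 they were 2.04, 1.52 and 2.93 in Gbp3, 1.21, 1.23 and 2.55 in Gbp6 and 1.68, 1.59 and 2.49 in Gbp7, and 1.58, 3.91 and 2.7 in Iigp1 and 0.84, 1.53 and 2.39 in Tgtp1. All 9 genes were thus above control in each batch with each hairpin, except Irgm1 in batch 2 with shRNF185.3.

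The test called 3 of the 9 genes, where 14.2% of all genes tested were called: Irgm1 (edgeR adjusted p 0.000522), Irgm2 (0.016) and Igtp (0.0158), the 3 regulatory genes. The Gbp genes gave adjusted p of 0.142 (Gbp7) to 0.747 (Gbp6), and the effectors gave 0.532 (Tgtp1) and 0.921 (Iigp1), which does not show that their changes were alike in the batches. Without control replicate 4 the values were 0.127 for Irgm2 and 0.057 for Igtp, so that 1 gene was called, and without control replicate 6 Igtp was at 0.0608. Without control replicate 5, 5 genes were called, Gbp3 (0.0318) and Gbp7 (0.0418) being added. The share of all genes called in the fits without a library was not counted. Each cell of this comparison holds 2 libraries, and the deposited counts had already been adjusted for batch by the authors, whose adjustment could change such differences.

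**Figure D4:**
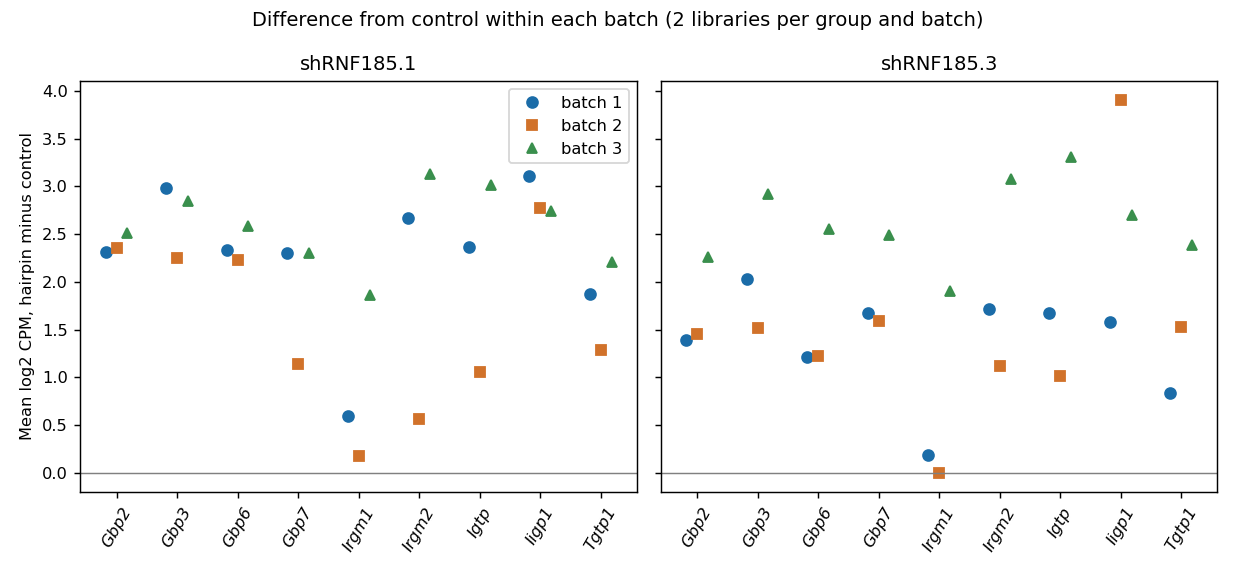
Mean log2 CPM of the 2 hairpin libraries minus that of the 2 control libraries in each batch, for each of the 9 genes, with shRNF185.1 on the left and shRNF185.3 on the right. The line at 0 means no difference. Irgm1 is near 0 in batch 2 and at 1.87 and 1.90 in batch 3, and the Irgm2 and Igtp points are lowest in batch 2.

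Levels of different genes were compared as CPM per kilobase of exon. In control the order of the means was Irgm1 (10.1), Gbp2 (3.79), Gbp3 (1.16), Igtp (1.13), Irgm2 (0.780), Tgtp1 (0.528), Gbp7 (0.475), Gbp6 (0.244) and Iigp1 (0.0537). Only the step from Gbp2 to Gbp3 separated neighbours whose libraries did not overlap. With shRNF185.1, Gbp2 (19.6) and Irgm1 (17.4) overlapped at the top, and Gbp3 followed at 7.35 with no overlap with Irgm1. With shRNF185.3 the top of the order was Irgm1 (15.5), Gbp2 (12.4) and Gbp3 (5.17), and Gbp2 and Gbp3 did not overlap. Iigp1 stayed last in each group, at 0.423 with shRNF185.1 and 0.351 with shRNF185.3. In control MPC3 cells the libraries of Irgm1 and Gbp2 thus lay above those of the other 7 genes on this scale.

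Levels of the 9 genes also varied between libraries of a group. The mean log2 level of the 9 genes, relative to the control mean, was 0.31, -0.05, 0.23, 0.33, 0.23 and -1.05 in control replicates 1 to 6. In control replicate 6 the mean was thus well below that of the other control libraries. Without that library 9 of the 9 genes were called higher with shRNF185.1 and 8 with shRNF185.3, all but Irgm1. Over all genes, 3766 were called in either direction with shRNF185.1 in that fit. With shRNF185.3, 3338 to 3995 were called in the fits that left out 1 library. The mean of the 9 genes ran from 1.51 to 2.58 with shRNF185.1 and from 1.44 to 2.46 with shRNF185.3, and so no hairpin library reached down to the control range. Deviations from the group means, over 18 libraries, were correlated between members with a median r of 0.686 over 36 pairs, from 0.0479 for Irgm1 and Iigp1 to 0.882 for Irgm1 and Igtp. These points share libraries and depth, and the correlations are given as a description.

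Genes of other families were ranked by how closely their deviations followed the mean of the 9, over 18 libraries and 11525 genes whose mean log2 CPM was 1 or more. The 6 closest were Trim12a (r = 0.905) and Trim34a (0.882) of the tripartite motif family, Oasl2 (0.903) of the oligoadenylate synthetase family, Ifit3 (0.890), an antiviral gene induced by interferon, Ddx58 (0.880), the sensor of viral RNA called RIG-I, and Gfpt1 (0.877), an enzyme of hexosamine synthesis. Over both hairpins, Ifit3 rose by 2.69, Oasl2 by 1.92, Trim34a by 1.45, Trim12a by 1.15 and Ddx58 by 0.78 on the log2 scale, each called by edgeR. Gfpt1 had a value of 0.22 and was not called (edgeR adjusted p 0.0808), and the ranking rests on variation within groups alone. Among control libraries each of the 6 genes was lowest in replicate 6, where the mean of the 9 was -1.05. The ranking was not repeated without that library.

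**Figure D5:**
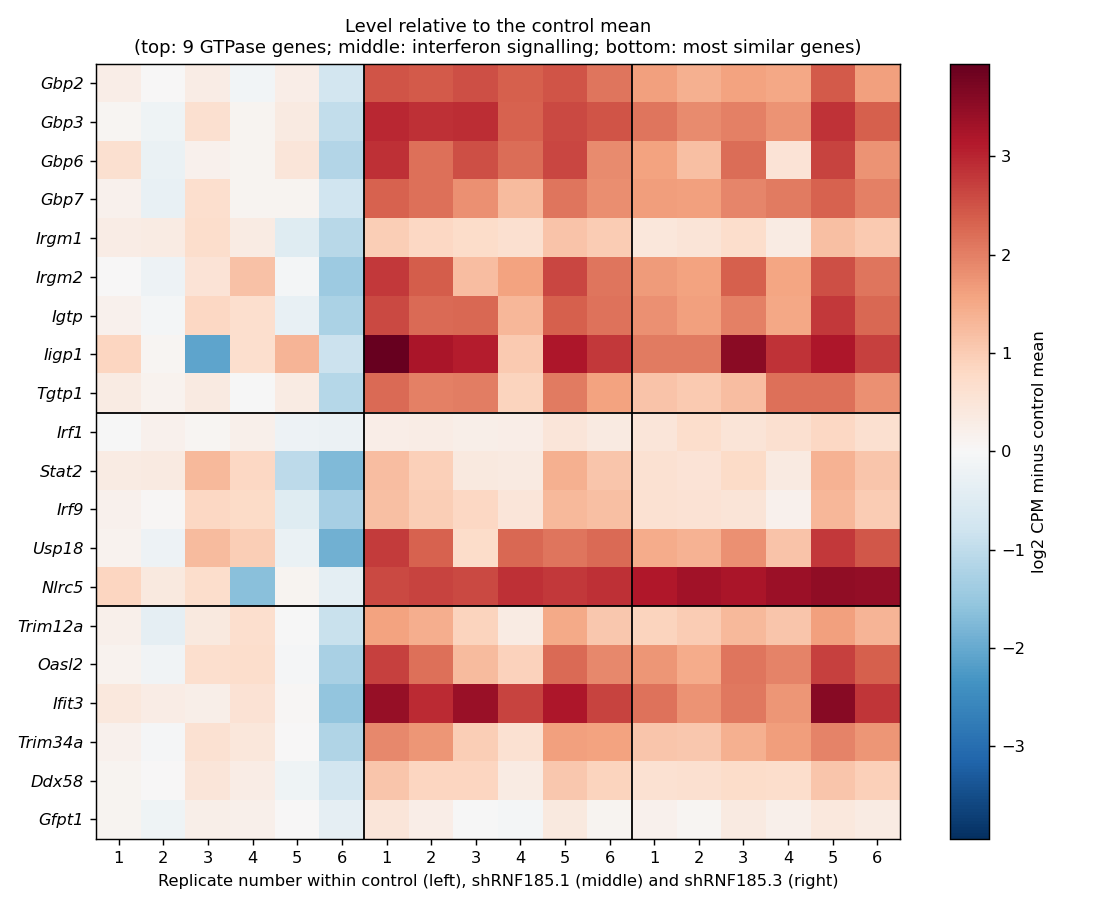
Log2 CPM (edgeR, prior count 2) of each library minus the control mean, for the 9 GTPase genes (top), 5 interferon signalling genes (middle) and the 6 most similar genes (bottom). The 5 in the middle (Irf1, Stat2, Irf9, Usp18 and Nlrc5) were picked from a longer pathway list described below. Genes of that list that fell, such as Ifnlr1 and Jak2, are not drawn. Columns are replicates 1 to 6 of control, shRNF185.1 and shRNF185.3. Red is above and blue below the control mean. Control replicate 6 is blue for the 9 GTPase genes, whose mean there is -1.05, and the hairpin columns are red in the top block.

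A list of 18 further genes of the Gbp and IRG families was also examined, of which 9 passed the filter on low counts. Of these, 6 reached its level in all 6 control libraries, and Gbp5, Tgtp2 and Gm12185 passed mainly through hairpin libraries. Among those 6, Gbp4 and Gbp9 were called higher with each hairpin and 0 were called lower, where of all genes tested 14.6% were called higher with shRNF185.1 and 14.2% with shRNF185.3. Gbp5 and Tgtp2 were also called higher with each hairpin. Gbp9 averaged 5.14 ± 1.17 CPM in control libraries, 13.6 ± 3.71 in those of shRNF185.1 and 13.5 ± 2.92 in those of shRNF185.3 (SD, n = 6), and rose by 1.40 on the log2 scale with each hairpin (edgeR adjusted p 2.19e-05 and 2.39e-05). Gbp4 rose by 0.93 and 1.23, although in batch 2 with shRNF185.1 its difference from control was 0.08. Gbp5, known for a part in inflammasome activation, rose by 2.07 and 1.61. In batch 2 with shRNF185.3 it differed from control by -0.42, and replicate 4 there held 1 count, below every control library. Tgtp2, the copy of Tgtp1, gave 3.10 and 3.16 (edgeR adjusted p 0.0248 and 0.0242) at 0.207 CPM in control, with 81.4% of its 75-base windows shared. Control replicates 1 and 4 were at 0, so that this fold depends on how low values are handled. In batch 2 both shRNF185.1 libraries were at 0 as well, and the difference from control there was -1.68. Gm12185 was called only over both hairpins (1.43, adjusted p 0.0435).

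The remaining family genes did not pass the test against control. Gvin1, a very large interferon-induced GTPase, gave 1.13 and 0.76 (edgeR adjusted p 0.0687 and 0.232), and 98.3% of its windows occur in other genes of its family. Irgq, a divergent member of the IRG family, averaged 41.5 ± 6.01 CPM in control libraries, 41.2 ± 5.01 in those of shRNF185.1 and 35.7 ± 4.26 in those of shRNF185.3 (SD, n = 6), with log2 fold changes of -0.01 and -0.21. The values of 9930111J21Rik1 were -0.08 and -0.08, and those of 9930111J21Rik2 were 0.09 and 0.06. In the test across batches, 3 of these 9 genes were called (Gvin1, 9930111J21Rik1 and 9930111J21Rik2), where 14.2% of all genes tested were.

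Genes of the pathway that induces the GTPases were listed by role, 27 in all, of which 20 were tested. With shRNF185.1, 11 of the 20 were called higher and 2 lower, with shRNF185.3 9 higher and 2 lower, and over both hairpins 10 higher and 3 lower. The shares of all genes tested were 14.6% higher and 14.3% lower, 14.2% and 13.1%, and 16.1% and 16.8% in the same order. The median log2 fold change was 0.25 with shRNF185.1 and 0.21 with shRNF185.3. Transcripts of the listed ligands were near or at 0: Ifng had at most 2 counts in any library and Ifnb1 at most 3, so that no difference was detectable at this depth. The list held no type I interferon gene other than Ifnb1, so the others were not examined. Ifngr1 and Ifngr2, the chains of the interferon gamma receptor, were at 57.5 ± 4.59 and 67.0 ± 7.06 CPM in control (SD, n = 6) and were not called, with log2 fold changes of 0.06 and 0.01 for Ifngr1 and 0.04 and -0.08 for Ifngr2. Ifnar2, of the type I receptor, gave 0.22 over both hairpins and Il10rb, a chain shared by the type III receptor, 0.32, both called. Ifnlr1, the other chain of the type III receptor, fell by 1.23 on the log2 scale over both hairpins (edgeR adjusted p 1.11e-05).

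Among the kinases Jak1 rose by 0.24 over both hairpins and Jak2 fell by 0.37 on the log2 scale. Irf9, which recognises the ISRE, gave 0.71 over both hairpins (edgeR adjusted p 0.0291) and Stat2, of the same complex, 0.57 (adjusted p 0.174, not called). For shRNF185.1 the differences of Irf9 in batches 1, 2 and 3 were 0.98, -0.14 and 2.13, and those of Stat2 0.73, -0.665 and 2.62. For shRNF185.3 they were 0.48, -0.45 and 2.055 in Irf9 and 0.22, -0.48 and 2.61 in Stat2. Both genes were thus below control in batch 2 with each hairpin.

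Irf1, a factor for both Gbp and IRG promoters, averaged 43.9 ± 5.59 CPM in control libraries, 54.1 ± 3.47 in those of shRNF185.1 and 67.2 ± 5.69 in those of shRNF185.3 (SD, n = 6). It rose by 0.30 and 0.62 on the log2 scale (edgeR adjusted p 0.00591 and 7.99e-06) and the level with shRNF185.3 exceeded that of shRNF185.1 by 0.32 (adjusted p 0.00794), whereas for Gbp2 it was lower. Nlrc5, an activator of class I antigen presentation genes, rose most of the list, by 3.19 over both hairpins, from 0.270 CPM in control to 1.92 with shRNF185.1 and 2.94 with shRNF185.3. Of the inhibitors Usp18, which blocks the type I receptor, rose by 1.81, Socs1 by 0.41 and Socs3 by 0.32, while Ptpn2 fell by 0.16 on the log2 scale. In batches 1, 2 and 3 Usp18 differed from control by 2.57, 0.39 and 3.25 for shRNF185.1 and by 1.46, 0.36 and 3.69 for shRNF185.3. The test across batches called 9 of the 20 genes, where it called 14.2% of all genes tested, among them Stat2 (edgeR adjusted p 9.25e-05) and Irf9 (0.000372). In Irf9, as in Irgm1, control replicates 5 and 6 were the lowest of the control libraries, at 11.3 and 6.40 CPM.

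Proteins that direct Gbp and IRG to membranes, or act beside them, formed the last list of 20 genes, 16 of them tested. With shRNF185.1, 5 were called higher and 1 lower, with shRNF185.3 4 higher and 3 lower, and over both hairpins 4 higher and 3 lower. Of all genes tested 28.9%, 27.3% and 32.9% were called in either direction, so the counts of this list are near the background. The median log2 fold change was 0.10 and 0.01 with the 2 hairpins. Those that rose most over both hairpins were Trim21 (0.89), a ligase that binds antibody in the cytosol, Rnf213 (0.85), a ligase that ubiquitinates bacteria and vacuoles, and Casp4 (0.75), the mouse caspase-11 that senses lipopolysaccharide freed by Gbp proteins. Atg12 (-0.30) and Atg7 (-0.14), of the conjugation machinery on which the targeting of IRG and Gbp proteins depends, and Traf6 (-0.24), a ligase recruited to vacuoles, fell. In this list 3 of 16 genes were called in the test across batches, where 14.2% of all genes tested were.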

How the data were processed

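Polyadenylated RNA from 18 libraries was sequenced as single-end reads of 75 bases on an Illumina NextSeq instrument after a strand-specific NEBNext preparation, per the labels' protocols. The submitters' processing notes name cutadapt 2.3, STAR 2.7.0d, RSEM 1.3.1 and the build mm10; the settings, the gene annotation and the authors' statistical test are not given in the sources used here. The authors deposited expected counts for 47643 genes and a CPM table for 15386 genes, and the names of both refer to ComBat-Seq, which adjusts counts for batch; whether it was told the groups is not given. Of the deposited expected counts 0.466% are not whole, and they were rounded to whole numbers before testing, where the design had assumed whole counts. The deposited CPM are a normalised signal whose columns sum to 969986 to 1026394, because the authors scaled library sizes.

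Counts were tested with edgeR 4.0.16 in R 4.3.3: filterByExpr with a minimum count of 10 left 14309 genes, libraries were scaled by TMM, and group means were fitted to all 18 libraries with no covariate. The test across batches used a mean per group and batch. Adjusted p-values are Benjamini-Hochberg over all genes tested. The edgeR comparison of shRNF185.1 with control was also run on simulated counts that held no batch differences. The test across batches and the alternatives were not run on simulated counts. Alternatives used limma 3.58.1 and DESeq2 1.42.0, other scaling and filters, batch or replicate number as a term, and libraries or batches left out; summing near-identical genes was chosen after seeing the data. Gene positions and the shares of 75-base windows found in other genes come from GENCODE M21 (GRCm38). Total counts of 22027395 to 43379662 per library give a floor of 3 counts of 0.0692 to 0.136 CPM, which covers counting error only.

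Named genes were the 9 members, each tested gene of the family list, the pathway genes called over both hairpins with Ifng, Ifnb1, Ifngr1, Ifngr2 and Irf1 in any case, the 3 highest and 3 lowest called genes of the targeting list, Rnf185, and the 6 genes with the most similar deviations. One pathway gene that the rule names is counted in its list and is not reported here. Stat2 and the genes of the closing observations were added after their values were seen. The members and lists were chosen with earlier results of these data known.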

Additional observations from a re-analysis of the deposited data

Results flagged for a closer look

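Among 27 groups of 6 libraries (9 genes in 3 groups), 4 held a library that stood far from the others on the log2 CPM scale (Dixon's ratio above 0.625), where chance gives about 1.35. Replicate 6 of shRNF185.1 held the lowest Gbp2 of its group at 5.32, where the nearest library was at 5.60, and replicate 5 of shRNF185.3 the highest of its group at 5.65, where the nearest was at 4.86. Igtp was lowest at 2.39 in replicate 4 of shRNF185.1, where the nearest was at 3.23. Tgtp1 was lowest at -0.39 in control replicate 6, where the nearest was at 0.71.

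Gbp2 differed between the hairpins, with a log2 fold change of -0.66 for shRNF185.3 against shRNF185.1. The hairpin change differed between batches in Irgm1 (edgeR adjusted p 0.000522), Irgm2 (0.016) and Igtp (0.0158), and the cause was not tested.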

How the results depend on the processing

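Each comparison with control was repeated under 32 alternatives. For the 8 genes other than Irgm1, 768 of 768 values kept their direction and stayed past the threshold. For Irgm1 74 of 96 did. Its change with shRNF185.3 was not called without batch 1 (0.83, adjusted p 0.0977), without batch 3 (0.09, adjusted p 0.62), with no filter on low counts (0.61, adjusted p 0.0565), with batch as a covariate (0.62, adjusted p 0.0731), with the libraries of a group and batch summed (0.65, adjusted p 0.171), or without any one of control replicates 1, 2, 5 and 6, shRNF185.1 replicates 1, 2, 3 and 6, and shRNF185.3 replicates 3, 5 and 6. With shRNF185.1 it was not called without batch 1 (0.88, adjusted p 0.0793) or with summed libraries (0.82, adjusted p 0.0902), and over both hairpins without batch 1 (0.86, adjusted p 0.0513), without batch 3 (0.24, adjusted p 0.0856) or with summed libraries (0.73, adjusted p 0.0816). In shRNF185.3 against shRNF185.1, 2 of the 9 genes were called by limma-voom, 0 without batch 1, 0 without batch 2, 3 without batch 3 (Gbp2, Gbp3 and Gbp6), and 1 to 3 with 1 library left out (3 without shRNF185.3 replicate 5). The number of all genes called between the hairpins is not set beside the counts of limma-voom and without batch 3, which are a description only. Uncalled differences between the hairpins changed sign without batch 1 in Gbp7 (0.30), Irgm2 (0.20), Igtp (0.14), Iigp1 (0.38) and Tgtp1 (0.19). That of Gbp7 also did so with limma-voom (0.0039), limma on log2 of CPM plus 1 (0.0028) or plus 0.25 (0.0046), and with 1 library left out ranged from -0.12 to 0.075 (0.075, 0.038, 0.021, 0.041 and 0.047 where the sign changed). The test across batches called 6 of the 9 genes with no filter on low counts and 1 to 5 with 1 library left out (1 without control replicate 4, 5 without control replicate 5). The share of all genes called by it in these fits was not counted, so these counts cannot be set beside one. Over 20 alternatives its edgeR adjusted p varied widely, from 1.2e-36 to 0.00251 in Irgm1 and from 7.9e-17 to 0.127 in Irgm2. Over all genes, the number called was 2207 with shRNF185.1, 2120 with shRNF185.3, 2672 over both and 753 between the hairpins without batch 1. It was 2501 with shRNF185.3 and 3106 over both without batch 3, and 1208 between the hairpins without batch 2. Fewer libraries entered these fits. With 1 library left out it ranged from 3692 to 4215, 3338 to 3995, 4120 to 4797 and 1696 to 2283 in the same order of comparisons.

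The replicate number as a block called 9 of the 9 genes with shRNF185.1, 8 with shRNF185.3 (Irgm1 at 0.63, adjusted p 0.0924), 9 over both and 1 between the hairpins, and 3811, 3578, 4304 and 1976 genes in all. Same-numbered libraries of different groups share a batch, and their deviations had a mean r of -0.0144 over 18 pairs (-0.628 to 0.705, across 9671 genes), where differently numbered libraries of the same batch had -0.434 and libraries of other batches 0.111. Same-numbered libraries were thus more alike than differently numbered libraries of their batch, although not every same-numbered pair was correlated. These values do not settle whether the number pairs the libraries. The number was left out of the main fit and used in the block above. Fold changes of genes near the floor of 3 counts, such as Iigp1, are limited by depth.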

Other observations

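The IRG genes Gm4951 and F830016B08Rik on chromosome 18 near Iigp1 did not pass the filter on low counts and were looked at after their values were seen. Gm4951 was at 0 CPM in the 4 control libraries of batches 1 and 2 and at 0.568 and 0.157 CPM in those of batch 3. With shRNF185.1 it was at 0.190 and 0.156 CPM in batch 1, at 0 in both libraries of batch 2 and at 8.77 and 8.84 in batch 3. With shRNF185.3 it was at 0 and 0.0715 in batch 1, at 0 in both libraries of batch 2 and at 6.90 and 6.11 in batch 3. F830016B08Rik gave at most 0.0381 CPM in any library of batches 1 and 2. In batch 3 it was at 0.0355 and 0.126 in control, at 3.63 and 1.43 with shRNF185.1 and at 2.7 and 0.809 with shRNF185.3. Transcripts of both genes were thus seen above the floor mainly in the hairpin libraries of batch 3, while Iigp1, in the same region, was found in the hairpin libraries of every batch. No test was run on these values.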
